A study of Homo sapiens with 36 samples.

Results

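The 12 libraries described here are those of wt cells, the platinum-sensitive parental A2780 line, out of 36 libraries in the series. They were chosen by cell line and treatment and form a 2 by 2 design of medium and carboplatin, with 3 libraries in each condition. The conditions were complete medium (wt), complete medium with carboplatin (wt carbo), medium without serine and glycine (wt -SG), and medium without serine and glycine with carboplatin (wt -SG carbo). A2780 is an established human ovarian cancer cell line, cells of all 4 conditions were from that same line, and the labels list no transgene or engineered allele. The labels write the carboplatin dose as 6 M in both treated conditions. That unit is doubtful, since carboplatin doses of other assays in the study are in µM. The 3 libraries of a condition are called technical replicates in the study, so the p-values below measure the spread between such libraries and not that between independent cultures. The question was which genes responded to carboplatin differently in the medium without serine and glycine.

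Total counts on genes ran from 14732873 to 20441582 in the 12 libraries. Values are given as CPM, counts scaled to a common library total with TMM, a normalization for library composition. Library 11, the second of wt -SG carbo, stood apart from libraries 10 and 12 of its condition. Relative to the mean of libraries 10 and 12, its log2 level fell by 0.119 for each doubling of transcript length. In the 9 libraries of the other 3 conditions, each set against the others of its condition, the slopes were -0.019 to 0.030. The mean chi-square of counts per gene was 25.6 between libraries 10 and 11, 24.6 between 11 and 12, and 1.20 between 10 and 12, so no pair was taken as 1 library. The main counts of genes below are therefore given with and without library 11. Of the 15 ovarian and epithelial markers listed, 5 passed the filter on low counts, and PAX8, WT1, KRT7, CDH1 and MUC16 were each at 0.616 CPM or lower in all 12 libraries. WFDC2, MSLN, SOX17, ESR1 and FOLR1 reached at most 0.727 CPM. EPCAM was at 0.727 to 2.28 CPM, KRT8, KRT18 and KRT19 reached 6.49, 7.52 and 7.81 CPM, and MUC1 was at 10.9 to 25.6 CPM. The leukocyte markers PTPRC, CD3E, CD14, CD68, CD79A and LYZ and the endothelial markers VWF and CDH5 reached at most 0.346 CPM. Of the fibroblast-associated genes, PDGFRA was at 160 to 329 CPM, PDGFRB at 7.64 to 22.9 CPM and ACTA2 at 15.5 to 112 CPM. DCN and LUM reached at most 0.601 and 1.42 CPM. The summed level of the 15 ovarian and epithelial markers was 13.2 to 14 CPM in wt, 15 to 16.3 CPM in wt -SG, 33.5 to 36.1 CPM in wt carbo and 44.9 to 49.0 CPM in wt -SG carbo. In bulk samples, fewer cells of one kind and less RNA per cell cannot be told apart.

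Serine and glycine are nonessential amino acids that cells take up or make from glucose through the enzymes PHGDH, PSAT1 and PSPH. They feed protein synthesis, glutathione, and the folate cycle that provides carbon units for nucleotides. When amino acids are short, uncharged tRNA activates the kinase GCN2, translation slows, and the transcription factor ATF4 raises genes for amino acid synthesis, uptake and tRNA charging. Carboplatin forms platinum adducts and crosslinks in DNA, which stall replication and activate p53. An interaction compares the carboplatin effect without serine and glycine with that in complete medium, as (wt -SG carbo minus wt -SG) minus (wt carbo minus wt) on the log2 scale. A positive value means that the combination lay above the sum of both single effects, and a negative value that it lay below. The same number is the effect of the medium under carboplatin minus its effect without carboplatin.

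Many genes departed from additivity, and the departure followed the medium effect, which was broad without carboplatin and small with it. The interaction was called for 4219 of 15247 genes tested (27.7%), with 2225 higher (14.6%) and 1994 lower (13.1%) than additive, by edgeR's quasi-likelihood test at an adjusted p-value (Benjamini-Hochberg) under 0.05. Without library 11 it was called for 5306 of 15523 genes (34.2%), with 2805 higher (18.1%) and 2501 lower (16.1%). The calls shared by both fits numbered 4028, which is 95.5% of the calls with library 11 and 75.9% of those without it, and each of the 4028 had the same direction in both. Most departures were modest, and 371 of the 4219 had an absolute log2 value of at least 1.

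Removal of serine and glycine changed 5691 genes in cells without carboplatin (37.3%), 2665 higher (17.5%) and 3026 lower (19.8%), and 7422 without library 11. In cells with carboplatin, the same change of medium was called for 513 genes (3.36%), 323 higher (2.12%) and 190 lower (1.25%). Without library 11 the count of 513 became 926 (5.97%). It was 234 without library 4 or library 5, 176 without library 6 and 841 without library 10, so its size depends on single libraries of both treated groups. These 2 comparisons share no library, and 282 genes were called in both, which is 4.96% of the first and 55.0% of the second. Of the 282, 106 moved the same way and 176 moved in opposite directions. Without library 11 the shared calls numbered 596, 264 the same way and 332 opposite. Over all genes tested, the median absolute log2 effect of the medium was 0.20 without carboplatin and 0.11 with it. Across the 11483 genes with at least 50 counts on average, the 2 medium effects had a Pearson r of -0.142, a description across genes, which are not independent.

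**Figure D1:**
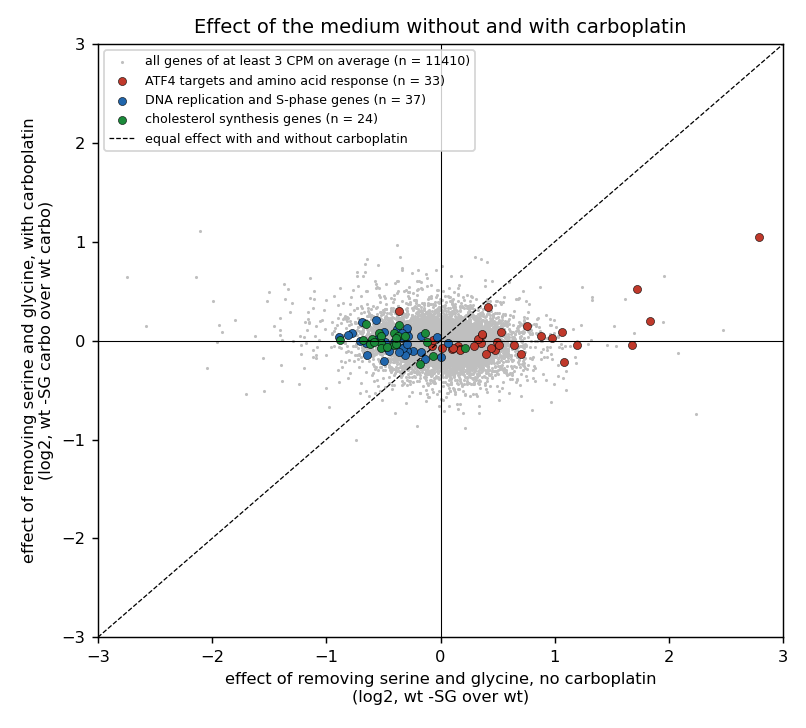
Log2 effect of removing serine and glycine in wt cells without carboplatin (x axis) and with carboplatin (y axis), 1 point per gene, for 11410 genes of at least 3 CPM on average over the 4 conditions, with the members of 3 gene lists in colour. The cloud is wide along x and narrow along y, with medians of the absolute effect of 0.20 and 0.11 over all genes tested, and the ATF4 targets on the right and the replication and cholesterol genes on the left lie near 0 on the y axis.

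The carboplatin effect itself was largely common to both media. Carboplatin changed 10532 genes in complete medium (69.1%), 5298 higher (34.7%) and 5234 lower (34.3%). Without serine and glycine it changed 10979 genes (72.0%), 5439 higher (35.7%) and 5540 lower (36.3%). Without library 11 these counts were 11466 and 11326. These comparisons also share no library, and 8863 genes were called in both, 84.2% of the first and 80.7% of the second, of which 8553 moved the same way. Across the 11483 genes with at least 50 counts on average, Pearson's r between both effects was 0.927. CDKN1A, the p53-induced inhibitor of cyclin-dependent kinases, shows this shared part. It was at 139, 142 and 136 CPM in wt, 1761, 1781 and 1756 CPM in wt carbo, 129, 130 and 131 CPM in wt -SG, and 1719, 1875 and 1712 CPM in wt -SG carbo. All treated libraries lay far above all untreated ones, and those of both media overlapped under carboplatin. Its interaction was 0.10 ± 0.05 (log2, SE) and was not called (adjusted p = 0.193, edgeR). MDM2, which targets p53 for degradation, rose by 1.81 and 1.74 on the log2 scale in complete and deprived medium, with an interaction of -0.07 ± 0.07 (adjusted p = 0.544, edgeR).

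**Figure D2:**
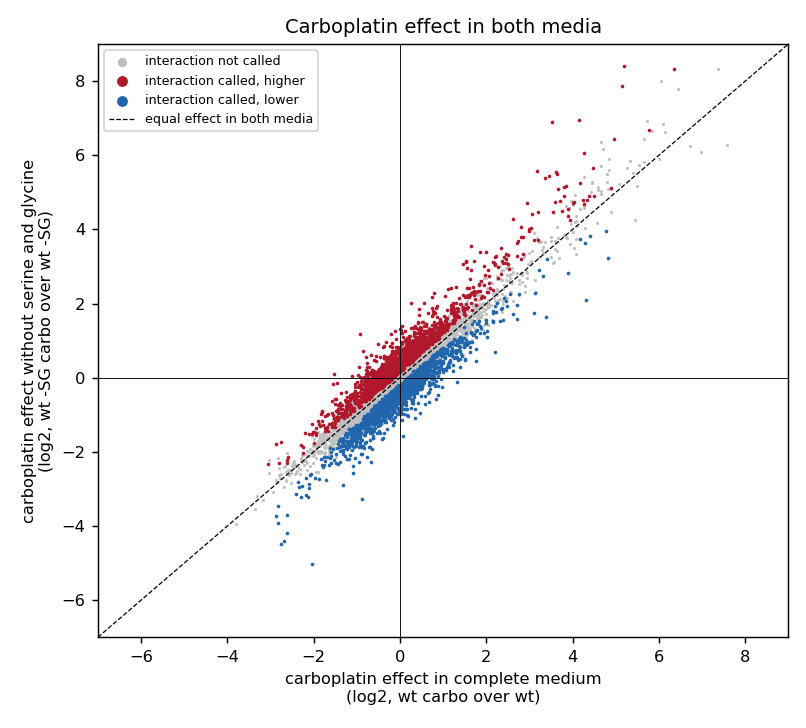
Log2 effect of carboplatin in complete medium (x axis) and without serine and glycine (y axis), 1 point per gene, for 11410 genes of at least 3 CPM on average, coloured by the edgeR call of the interaction. Points lie along the dashed line of equal effects (r = 0.927 over the genes with at least 50 counts), and the called genes form bands above the line (2225 of all genes tested) and below it (1994).

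Amino acid response genes made up the clearest group below additivity. Of 33 ATF4 targets and related genes tested, 26 were called lower and 1, ATF3, higher, with a median interaction of -0.51 against -0.01 over all genes tested. Calls made up 81.8% of this list, against 27.7% of all genes tested. Without library 11, 28 were lower and 1 higher. Without carboplatin, removal of serine and glycine raised 27 of the 33 and lowered 1, with a median of 0.44. The same removal raised 17.5% and lowered 19.8% of all genes tested. With carboplatin it raised 3, namely ATF5, INHBE and ATF3, against 2.12% of all genes, with a median over the list of -0.04. Without library 11 it raised 3 and lowered 4 under carboplatin. The 2 members of the list that the naming rule gave are FGF21 and SLC7A3. ATF5, SLC7A11, ASNS, TRIB3, INHBE, PCK2, CHAC1 and ATF3 are also named, chosen after their values were seen.

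FGF21, a hormone that many stressed cells secrete (ENSG00000105550, GRCh37 chromosome 19, 49258781 to 49261590), was at 1.75, 1.53 and 1.61 CPM in wt and 10.8, 11.9 and 11.3 CPM in wt -SG. With carboplatin it was at 0.215, 0.242 and 0.292 CPM in complete medium and 0.622, 0.493 and 0.459 CPM without serine and glycine. The deprived libraries were higher in both pairs, with no overlap, but by much less under carboplatin. Its interaction was -1.74 ± 0.43 (adjusted p = 0.0117, edgeR), and -1.61 with an adjusted p of 0.0684 by edgeR without library 6 of wt carbo. SLC7A3, a transporter of cationic amino acids (ENSG00000165349, chromosome X, 70145429 to 70150975), was at 5.70, 4.81 and 5.50 CPM in wt and 18.1, 15.9 and 17.4 CPM in wt -SG. In wt carbo it was at 0.591, 1.15 and 0.641 CPM, and in wt -SG carbo at 0.830, 0.924 and 0.524 CPM, so that both media overlapped under carboplatin. Its interaction was -1.72 ± 0.35 (adjusted p = 0.00165, edgeR).

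ATF5, a transcription factor of the same stress pathway, rose from 38.4 CPM in wt to 137 CPM in wt -SG, and was at 40.5 CPM in wt carbo and 46.4 CPM in wt -SG carbo on average. Its interaction was -1.64 ± 0.07 (adjusted p = 1.59e-10, edgeR). SLC7A11, the cystine and glutamate exchanger that supplies cysteine for glutathione, had an interaction of -1.30 ± 0.14, with a medium effect of 1.08 without carboplatin and -0.22 with it. ASNS, asparagine synthetase, was at 341 CPM in wt, 475 CPM in wt -SG, 144 CPM in wt carbo and 135 CPM in wt -SG carbo, with an interaction of -0.58 ± 0.06. TRIB3, a pseudokinase induced by stress, and PCK2, mitochondrial phosphoenolpyruvate carboxykinase, had interactions of -0.83 ± 0.07 and -0.69 ± 0.06. INHBE, a subunit of activin E, kept a medium effect of 0.52 under carboplatin against 1.72 without it. The ATF4 transcript itself was at 514, 516 and 523 CPM in wt, 495, 498 and 486 CPM in wt -SG, 350, 362 and 358 CPM in wt carbo, and 326, 369 and 338 CPM in wt -SG carbo. It was lower with carboplatin in both media, and its interaction of 0.02 ± 0.06 was not called (adjusted p = 0.825, edgeR). CHAC1, which degrades glutathione, was not called either (0.08 ± 0.08).

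The promoters of this group can be read for the letters that ATF4 and its C/EBP partners are known to bind. In RefSeq's promoter windows, the 250 bases before a listed start were searched for TGATGNAA on both strands, a search added after the results were seen. A gene with several windows counted when any held the letters, and its matching window of lowest coordinate is the one shown. Of the 33 tested members, 29 had a window, and 8 of these (27.6%) held the letters: ASNS, ATF3, CEBPG, CHAC1, FGF21, HERPUD1, JDP2 and SLC1A5. Over all genes with a window, 1061 of 27305 (3.89%) held them. Of the 8, 5 were called lower, 1 higher and the others, including CHAC1, were not called, so that genes with these letters moved in both directions. The 3 called members with the largest interaction among them are shown, 5′ to 3′ on the gene's strand and ending at the base before the start, with the match in capitals.
FGF21 (GRCh38.p14 chr19:48755274-48755523, plus strand): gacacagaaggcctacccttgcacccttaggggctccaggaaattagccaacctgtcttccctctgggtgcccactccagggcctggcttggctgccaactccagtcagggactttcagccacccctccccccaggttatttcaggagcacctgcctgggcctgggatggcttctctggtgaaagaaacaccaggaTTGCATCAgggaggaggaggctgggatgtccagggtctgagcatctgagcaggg
ATF3 (GRCh38.p14 chr1:212565157-212565406, plus strand): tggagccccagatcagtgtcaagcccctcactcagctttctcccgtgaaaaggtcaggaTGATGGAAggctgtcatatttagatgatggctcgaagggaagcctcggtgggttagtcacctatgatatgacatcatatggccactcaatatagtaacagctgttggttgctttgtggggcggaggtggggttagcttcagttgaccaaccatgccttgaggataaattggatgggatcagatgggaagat
ASNS (GRCh38.p14 chr7:97872409-97872658, minus strand): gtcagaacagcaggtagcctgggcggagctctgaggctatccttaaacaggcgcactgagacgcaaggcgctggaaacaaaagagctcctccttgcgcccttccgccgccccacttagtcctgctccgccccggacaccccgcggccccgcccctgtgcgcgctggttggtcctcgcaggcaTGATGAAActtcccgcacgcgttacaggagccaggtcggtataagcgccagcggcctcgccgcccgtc
The matches began 54, 191 and 68 bases before the start in FGF21, ATF3 and ASNS, respectively. FGF21 reads on the opposite strand, and ATF3 is the only one of the 3 above additivity. A relation between the position of a match and the interaction was not tested.

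The serine synthesis enzymes followed the same direction at a smaller size. PHGDH, which catalyses the first step from glucose-derived 3-phosphoglycerate (ENSG00000092621, chromosome 1, 120191034 to 120286841), was at 458, 484 and 460 CPM in wt and 520, 528 and 526 CPM in wt -SG. It was at 174, 180 and 173 CPM in wt carbo and 153, 171 and 161 CPM in wt -SG carbo. Deprived libraries were above complete ones without carboplatin and below them with it, with no overlap in either case. The medium effect was 0.17 (adjusted p = 0.00481, edgeR) without carboplatin and -0.12 (adjusted p = 0.15, edgeR) with it, and the interaction was -0.29 ± 0.06 (adjusted p = 0.00211, edgeR). Without library 11, 2 of the 3 serine synthesis enzymes were called lower in deprived medium under carboplatin. The PHGDH interaction lost its call in one fit over all 36 libraries (-0.28, adjusted p = 0.338, edgeR). PSAT1, the transaminase of the next step (ENSG00000135069, chromosome 9, 80912041 to 80945009), was at 898, 907 and 879 CPM in wt, 1054, 1071 and 1057 CPM in wt -SG, 455, 444 and 447 CPM in wt carbo and 405, 433 and 414 CPM in wt -SG carbo. Its interaction was -0.35 ± 0.05 (adjusted p = 6.34e-05, edgeR). PSPH, the phosphatase of the last step, had -0.15 ± 0.06 and was not called (adjusted p = 0.0944, edgeR). Carboplatin lowered PHGDH, PSAT1 and PSPH in both media, with log2 effects on PHGDH of -1.41 in complete and -1.70 in deprived medium.

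Folate cycle genes split. Of 20 enzymes of folate metabolism and glycine cleavage tested, 6 were called higher and 6 lower (7 and 6 without library 11), with a median of 0.06. This is 60.0% of the list, against 27.7% of all genes tested. The enzymes MTHFD2 (-0.36 ± 0.05), SHMT2 (-0.24 ± 0.05) and ALDH1L2 (-0.55 ± 0.08) were lower than additive. TYMS (0.46 ± 0.06), which makes thymidylate in proliferating cells, was higher. These 4 were chosen after their values were seen. AMT, the aminomethyltransferase of glycine cleavage, had -0.72 ± 0.24 (adjusted p = 0.0377, edgeR), a call that 10 of 19 alternative fits did not keep, and its annotation overlaps NICN1 on the same strand. MTHFD2L, a relative of MTHFD2, had 0.57 ± 0.17 (adjusted p = 0.0170, edgeR), a call also lost in the fit over 36 libraries. Of 20 cytosolic aminoacyl-tRNA synthetases, which charge tRNAs, 9 were lower and 4 higher (10 and 7 without library 11). SARS1, the synthetase for serine, was at 284, 283 and 278 CPM in wt and 418, 404 and 405 CPM in wt -SG. In wt carbo it was at 265, 269 and 266 CPM, and in wt -SG carbo at 264, 275 and 264 CPM. The deprived libraries stood clear of the complete ones without carboplatin and overlapped them with it, and the interaction was -0.53 ± 0.05 (adjusted p = 1.62e-06, edgeR). GARS1, the synthetase for glycine, named after its values were seen, had -0.42 ± 0.05. HARS1, for histidine, moved the other way (0.47 ± 0.05, adjusted p = 9.78e-06, edgeR), and overlaps HARS2 and WDR55 on the other strand, whose counts could not be told apart if strand was not used.

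**Figure D3:**
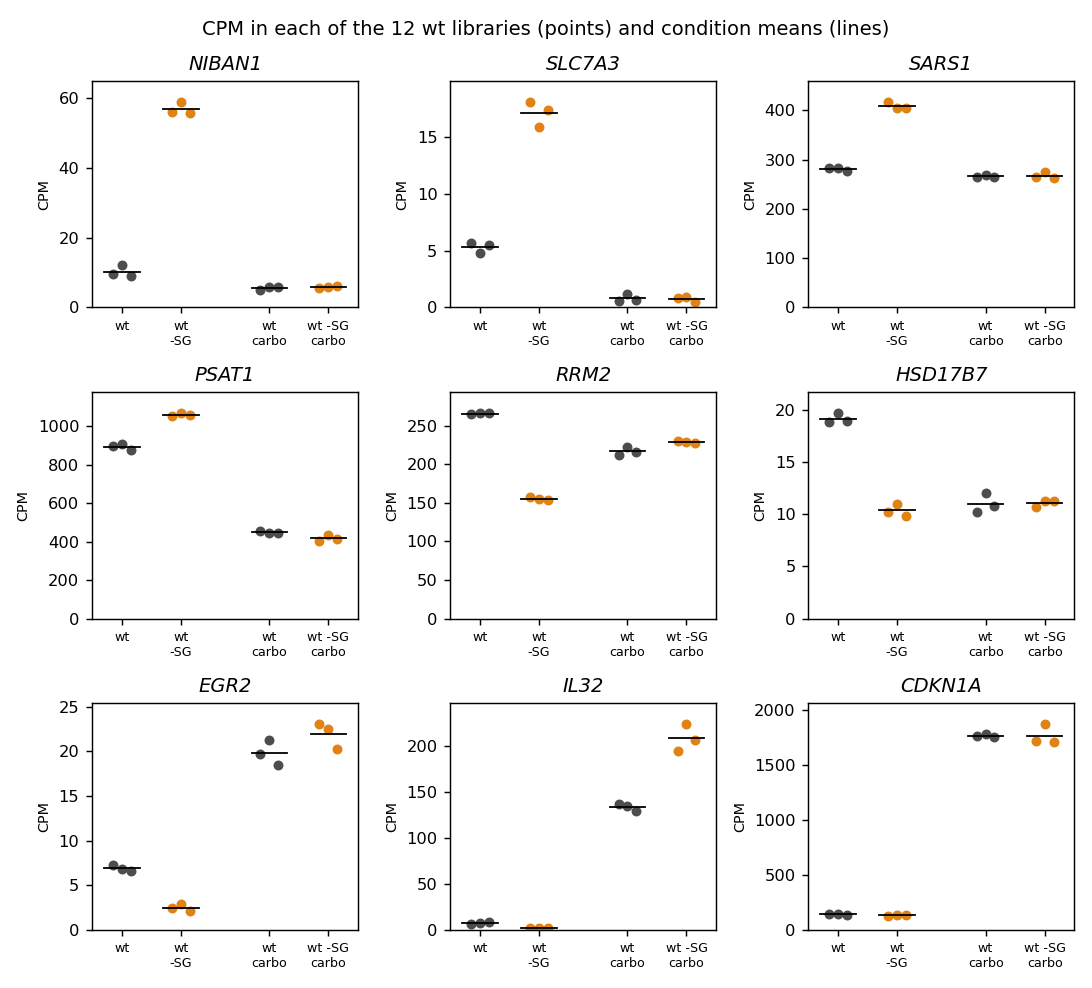
CPM (y axis, from 0) of 9 genes in each of the 12 wt libraries, as points, with the mean of each condition as a line, grey for complete medium and orange for medium without serine and glycine. NIBAN1, SLC7A3, SARS1 and PSAT1 are highest in wt -SG, RRM2, HSD17B7 and EGR2 are lower in wt -SG than in wt, IL32 is highest in wt -SG carbo, and CDKN1A is at 1712 to 1875 CPM in the treated libraries of both media.

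Among all protein-coding genes with at least 50 counts on average and a call in both fits, the 6 lowest interactions were those of FUT1, NIBAN1, EPAS1, PRSS35, FGF21 and SLC7A3. FUT1, a fucosyltransferase of the H blood group antigen (ENSG00000174951, chromosome 19, 49251268 to 49258647), lies next to FGF21 on the opposite strand. It was at 3.12, 3.93 and 3.84 CPM in wt, 16.8, 16.9 and 17.7 CPM in wt -SG, 0.699, 0.906 and 1.05 CPM in wt carbo and 0.346, 0.801 and 0.393 CPM in wt -SG carbo. The medium effect was 2.23 without carboplatin and -0.74 with it, where the media overlapped and no call was made (adjusted p = 0.245, edgeR), and its interaction was -2.98 ± 0.35 (adjusted p = 1.39e-05, edgeR). NIBAN1, which modulates translation under stress (ENSG00000135842, chromosome 1, 184759858 to 184943640), was at 9.65, 12.1 and 8.98 CPM in wt and 56.0, 59.0 and 55.8 CPM in wt -SG. It was at 4.94, 5.74 and 5.95 CPM in wt carbo and 5.53, 5.98 and 6.29 CPM in wt -SG carbo, where the media overlapped. The sum of both single effects would place the combination at 1.59 above wt on the log2 scale, and it was at -0.79, which gives an interaction of -2.37 ± 0.16 (adjusted p = 4.19e-08, edgeR).

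EPAS1 and PRSS35 differ from these in that carboplatin raised them. EPAS1, the hypoxia-inducible factor HIF-2α (ENSG00000116016, chromosome 2, 46520806 to 46613836), was at 0.877, 0.819 and 0.986 CPM in wt, 3.61, 4.13 and 3.69 CPM in wt -SG, 17.4, 19 and 17.5 CPM in wt carbo and 19.4, 14.1 and 16 CPM in wt -SG carbo. Both single treatments raised it, and with carboplatin the 2 media overlapped (interaction -2.21 ± 0.24, adjusted p = 5.37e-06, edgeR). PRSS35, a serine protease, was at 0.822, 1.15 and 1.51 CPM in wt, 4.34, 4.44 and 4.77 CPM in wt -SG, 13, 12.2 and 11.7 CPM in wt carbo and 15, 13.4 and 13.8 CPM in wt -SG carbo (interaction -1.75 ± 0.20, adjusted p = 8.65e-06, edgeR).

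Replication genes lay above additivity. Of 37 DNA replication and S-phase genes tested, 25 were called higher and the rest were not called (26 without library 11), with a median interaction of 0.38. Over all genes tested 14.6% were called higher, and 18.1% without library 11. Removal of serine and glycine lowered 33 of the 37 in untreated cells, against 19.8% of all genes tested, with a median of -0.36. Under carboplatin 1 was called lower and 1 higher, against 1.25% and 2.12% of all genes, with a median of -0.01. Carboplatin lowered 34 of the 37 in complete medium and 28 without serine and glycine, with medians of -1.13 and -0.77 on the log2 scale. It lowered 34.3% and 36.3% of all genes tested in these media. CCNE2, a cyclin that drives entry into S phase, was at 4.11, 4.48 and 5.19 CPM in wt, 2.20, 2.77 and 2.48 CPM in wt -SG, 4.78, 4.77 and 4.66 CPM in wt carbo and 4.56, 4.37 and 5.63 CPM in wt -SG carbo. Only the wt -SG libraries were set apart from the other 3 conditions, and the interaction was 0.93 ± 0.20 (adjusted p = 0.00245, edgeR). CCNE2 overlaps INTS8 and NDUFAF6, both on the other strand and both with more counts. GINS3, a subunit of the replicative helicase, was at 24.9, 25.9 and 25.4 CPM in wt, 15.9, 16 and 15.5 CPM in wt -SG, 13.3, 14.4 and 13.6 CPM in wt carbo and 14.5, 17 and 15.5 CPM in wt -SG carbo. Each treatment alone lowered it, and the libraries of the combination overlapped those of wt -SG, with an interaction of 0.87 ± 0.10 (adjusted p = 8.65e-06, edgeR). FEN1, the flap endonuclease of lagging strands, and GINS1, named after their values were seen, had 0.87 ± 0.07 and 0.70 ± 0.08.

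The letters of E2F sites, TTTGGCGC or TTTCCCGC, were searched in the same windows on both strands. They were in 11 of the 32 replication genes with a window (34.4%), against 645 of 27305 genes (2.36%). Of the 11, 6 were called, each of them higher than additive. In the whole list 25 of 37 were called (67.6%), also all higher, so this direction is that of the list and not particular to members with the letters. Of the members with the letters, windows of the 3 with the largest interaction among those called in both fits are shown in the same way.
GINS2 (GRCh38.p14 chr16:85688955-85689204, minus strand): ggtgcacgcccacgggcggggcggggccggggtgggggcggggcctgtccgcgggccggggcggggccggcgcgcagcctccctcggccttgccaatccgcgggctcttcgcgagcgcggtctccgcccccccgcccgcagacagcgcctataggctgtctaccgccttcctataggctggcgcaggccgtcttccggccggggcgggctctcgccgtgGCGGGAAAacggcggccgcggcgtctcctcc
PCNA (GRCh38.p14 chr20:5126623-5126872, minus strand): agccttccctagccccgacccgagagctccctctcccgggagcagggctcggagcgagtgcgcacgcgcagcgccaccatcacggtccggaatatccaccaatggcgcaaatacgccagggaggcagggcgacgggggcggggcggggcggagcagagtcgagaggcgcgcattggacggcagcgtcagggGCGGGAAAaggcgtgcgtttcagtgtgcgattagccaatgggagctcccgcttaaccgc
RFC3 (GRCh38.p14 chr13:33817899-33818148, plus strand): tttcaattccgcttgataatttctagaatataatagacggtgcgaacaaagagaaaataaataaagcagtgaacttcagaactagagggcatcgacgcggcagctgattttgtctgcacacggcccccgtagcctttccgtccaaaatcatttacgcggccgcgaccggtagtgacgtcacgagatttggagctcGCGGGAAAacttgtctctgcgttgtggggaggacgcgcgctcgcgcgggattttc
The matches began 31, 59 and 55 bases before the start in GINS2, PCNA and RFC3, and each reads on the opposite strand. The interactions were 0.63 for GINS2, a further helicase subunit, 0.58 for PCNA, the sliding clamp, and 0.49 for RFC3, part of the clamp loader. PCNA rose under carboplatin in both media, by 0.39 and 0.97, whereas GINS2 and RFC3 fell.

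Nucleotide synthesis genes, some of them shared with the replication list, had 11 of 24 members higher (13 without library 11) and a median of 0.15. These 11 are 45.8% of the list, against 27.7% of all genes tested. RRM2, the regulated subunit of ribonucleotide reductase, was at 265, 266 and 267 CPM in wt, 158, 155 and 154 CPM in wt -SG, 213, 222 and 216 CPM in wt carbo and 231, 229 and 227 CPM in wt -SG carbo. It fell with deprivation in untreated cells and was slightly higher in all deprived than in all complete libraries under carboplatin (0.08, adjusted p = 0.250, edgeR). The interaction was 0.85 ± 0.05 (adjusted p = 1.07e-08, edgeR). DUT, which removes dUTP, had 0.73 ± 0.08 (adjusted p = 6.25e-06, edgeR). In the G2/M list of 33, 11 were higher (15 higher and 1 lower without library 11), with a median of 0.12. The share called was 33.3%, near the 27.7% of all genes tested. Carboplatin lowered all 33 in both media, against 34.3% and 36.3% of all genes. Deprivation lowered 24 without carboplatin and 7 with it, against 19.8% and 1.25% of all genes. HMMR, a spindle protein, was at 72.1, 68.3 and 66.8 CPM in wt, 40.7, 38.3 and 37.5 CPM in wt -SG, 14.1, 15.4 and 15.6 CPM in wt carbo and 14.5, 13.9 and 13.1 CPM in wt -SG carbo, with an interaction of 0.71 ± 0.09 (adjusted p = 3.27e-05, edgeR). AURKB, the kinase of the chromosomal passenger complex, had 0.58 ± 0.10 (adjusted p = 0.000471, edgeR). In the list of 26 Fanconi anemia and homologous recombination genes, which repair crosslinks, 5 were higher and 1 lower, and without library 11 9 were higher. The 6 called are 23.1% of the list, below the 27.7% called over all genes tested. EXO1, a nuclease that resects breaks, had 0.63 ± 0.09 (adjusted p = 5.11e-05, edgeR). BRCA1 (-0.04 ± 0.14) and BRCA2 (-0.06 ± 0.22), named after their values were seen, were not called.

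Cholesterol synthesis genes behaved alike as a list. Of 24 tested, 19 were higher than additive and 1, SREBF2, lower, in the fits with and without library 11, and the median was 0.47. Calls made up 83.3% of this list in both fits, against 27.7% and 34.2% of all genes tested. Deprivation lowered 22 of the 24 in untreated cells, with a median of -0.44, while under carboplatin 1 was higher and 1 lower, with a median near 0. Over all genes tested, deprivation lowered 19.8% in untreated cells. Under carboplatin it raised 2.12% and lowered 1.25%. HSD17B7, a ketoreductase of the late pathway, was at 18.8, 19.7 and 18.9 CPM in wt, 10.2, 11 and 9.86 CPM in wt -SG, 10.2, 12.1 and 10.8 CPM in wt carbo and 10.6, 11.3 and 11.3 CPM in wt -SG carbo. Either treatment alone brought it to the level of the combination (interaction 0.89 ± 0.11, adjusted p = 2.83e-05, edgeR). NSDHL, which removes methyl groups from sterols, was at 12, 14.1 and 12.8 CPM in wt, 9.66, 7.73 and 7.12 CPM in wt -SG, 14.2, 15.4 and 15.5 CPM in wt carbo and 16.5, 16.6 and 17.5 CPM in wt -SG carbo (0.82 ± 0.14, adjusted p = 0.000361, edgeR). HMGCS1, named after its values were seen, was at 293 CPM in wt, 183 CPM in wt -SG, 287 CPM in wt carbo and 288 CPM in wt -SG carbo on average. Genes of the unfolded protein response split, with 8 higher and 4 lower of 24 (9 and 6 without library 11). Folding factors of the ER lumen such as SDF2L1 (0.97 ± 0.12, adjusted p = 1.60e-05, edgeR) and CRELD2 (0.58 ± 0.09, adjusted p = 0.000164, edgeR) were higher, and CRELD2 overlaps ALG12. The sensors ATF6 (-0.56 ± 0.07) and ERN1 (-0.55 ± 0.11), named after their values were seen, were lower.

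**Figure D4:**
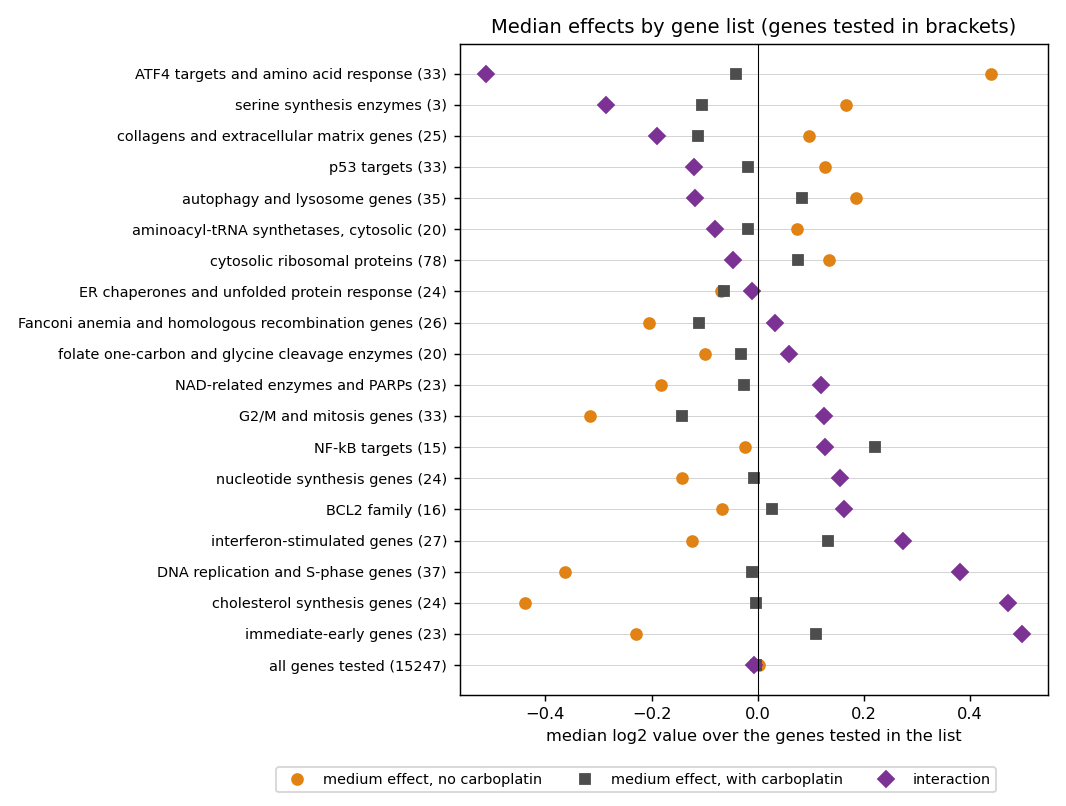
Median log2 value over the tested genes of each list (x axis) for the medium effect without carboplatin (orange circles), the medium effect with carboplatin (grey squares) and the interaction (purple diamonds), with all genes tested at the bottom. Lists run from ATF4 targets at -0.51 to immediate-early genes at 0.50 in the interaction, and the medium effect with carboplatin stays nearer 0 than that without it for most lists, NF-kB targets, interferon-stimulated genes and matrix genes excepted.

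The immediate-early list, transcription factors and phosphatases that growth factor signalling induces within minutes, had a median of 0.50, and of 0.41 without library 11, next to 0.47 and 0.48 for the cholesterol list. Of 23 tested, 13 were higher and 2 lower, with and without library 11 (65.2%, against 27.7% and 34.2% of all genes tested). EGR2, a zinc finger factor, was at 7.29, 6.83 and 6.59 CPM in wt, 2.49, 2.87 and 2.10 CPM in wt -SG, 19.7, 21.3 and 18.5 CPM in wt carbo and 23.1, 22.5 and 20.3 CPM in wt -SG carbo. Deprivation set its libraries apart in untreated cells alone, and the interaction was 1.61 ± 0.15 (adjusted p = 1.76e-06, edgeR). DUSP5, a phosphatase of nuclear ERK, was at 7.84, 7.76 and 8.88 CPM in wt, 3.22, 3.03 and 3.63 CPM in wt -SG, 23.2, 25.6 and 22.5 CPM in wt carbo and 29, 29.6 and 28.2 CPM in wt -SG carbo (1.60 ± 0.13, adjusted p = 4.22e-07, edgeR). EGR1, named after its values were seen, fell from 605 CPM in wt to 207 CPM in wt -SG, and was at 559 CPM in wt carbo and 494 CPM in wt -SG carbo on average.

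The highest interactions by the same rule were those of CXCR4, SERPINA1, IL32, TAF11L12, SFN and FAM111B. CXCR4, the receptor of the chemokine CXCL12 (ENSG00000121966, chromosome 2, 136871919 to 136876747), had 13, 12 and 11 counts in wt and 1, 2 and 2 in wt -SG. It reached 7.42, 8.21 and 6.94 CPM in wt carbo and 11.8, 12.2 and 11.1 CPM in wt -SG carbo, so deprivation went with a lower level in untreated and a higher one in treated cells. The ratio of wt -SG to wt was 0.140, with an exact 95% interval of 0.0429 to 0.358 that covers counting error only. The interaction was 3.38 ± 0.43 (adjusted p = 3.09e-05, edgeR), a value that depends on the few counts in wt -SG. SERPINA1, α1-antitrypsin (ENSG00000197249, chromosome 14, 94843084 to 94857030), had 4, 4 and 2 counts in wt and 1, 1 and 0 in wt -SG, a ratio of 0.202 with an exact interval of 0.0215 to 0.946. It was at 7.20, 6.52 and 6.65 CPM in wt carbo and 13, 16 and 14.9 CPM in wt -SG carbo, with no overlap. It met the filter and the 50-count rule through these treated libraries, and its interaction and its rank rest on 2 counts in wt -SG against 10 in wt (3.21 ± 0.79, adjusted p = 0.00623, edgeR).

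IL32, a cytokine (ENSG00000008517, chromosome 16, 3115298 to 3132193), shows the same crossing at higher counts. It was at 6.74, 7.05 and 8.67 CPM in wt, 1.71, 1.83 and 1.53 CPM in wt -SG, 137, 135 and 130 CPM in wt carbo and 195, 225 and 207 CPM in wt -SG carbo. The medium effect was -2.14 (adjusted p = 9.80e-09, edgeR) without carboplatin and 0.64 (adjusted p = 6.03e-06, edgeR) with it, and the interaction was 2.78 ± 0.15 (adjusted p = 4.05e-09, edgeR). SFN, the p53-induced 14-3-3σ (ENSG00000175793, chromosome 1, 27189640 to 27190947), was at 2.52, 2.51 and 2.80 CPM in wt, 0.635, 0.627 and 0.70 CPM in wt -SG, 23.9, 24.8 and 22.3 CPM in wt carbo and 28, 34.9 and 30.7 CPM in wt -SG carbo. Both groups of the medium were apart without and with carboplatin, in opposite directions (interaction 2.40 ± 0.24, adjusted p = 2.68e-06, edgeR). FAM111B, a protease gene of S phase (ENSG00000189057, chromosome 11, 58874658 to 58894885), was at 9.37, 9.12 and 8.26 CPM in wt, 2.39, 2.14 and 2.42 CPM in wt -SG, 4.19, 5.07 and 4.90 CPM in wt carbo and 5.12, 4.87 and 5.83 CPM in wt -SG carbo. Carboplatin lowered it in complete medium and raised it in deprived medium (interaction 2.10 ± 0.18, adjusted p = 4.79e-07, edgeR). TAF11L12 belongs to a cluster of near-identical copies, and its value of 2.73 is uncertain for that reason and for its low counts. It had 7, 2 and 5 counts in wt and 0, 1 and 1 in wt -SG. The ratio of wt -SG to wt was 0.144, with an exact interval of 0.0159 to 0.627. Its libraries with carboplatin had 134 to 176 counts, so its interaction and its rank rest on 2 counts in wt -SG against 14 in wt. It was not called without library 1 (2.31, adjusted p = 0.0832, edgeR) or library 7 (2.15, adjusted p = 0.0774, edgeR).

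Of 21 NF-kB targets matched, 15 passed the filter on low counts, and each of these 15 rose with carboplatin in both media. A gene near 0 without carboplatin could pass only through its treated libraries, so this count is partly set by the filter. The interaction was called higher for 3 of the 15 (20%, against 27.7% of all genes tested), and without library 11 for 4 higher and 1 lower. TNFAIP2, a gene induced by TNF, was at 14.5, 12.7 and 14.4 CPM in wt, 11.1, 9.98 and 11 CPM in wt -SG, 229, 229 and 218 CPM in wt carbo and 279, 294 and 289 CPM in wt -SG carbo (0.72 ± 0.08, adjusted p = 9.33e-06, edgeR). Of 27 interferon-stimulated genes tested, 11 (40.7%, against 14.6% of all genes tested) had a higher interaction (13 without library 11), with a median of 0.27. Carboplatin raised 15 of them and lowered 3 in complete medium, and raised 18 and lowered 1 in deprived medium. Over all genes tested it raised 34.7% and lowered 34.3% in complete medium, and raised 35.7% and lowered 36.3% in deprived medium. IFI27, a mitochondrial interferon-induced protein, was at 5.48, 6.39 and 5.76 CPM in wt, 3.03, 3.87 and 3.75 CPM in wt -SG, 8.38, 7.43 and 8.28 CPM in wt carbo and 12, 15 and 10.9 CPM in wt -SG carbo (1.39 ± 0.19, adjusted p = 5.24e-05, edgeR). IFI6 had 0.81 ± 0.14 (adjusted p = 0.000456, edgeR).

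Most p53 targets rose with carboplatin in both media. Of 33 tested, carboplatin raised 29 in each medium, against 34.7% and 35.7% of all genes in complete and deprived medium. The interaction was lower for 12 and higher for 4 (16 and 5 without library 11), with a median of -0.12. That is 48.5% of the list, against 27.7% of all genes tested. GDF15, a secreted stress cytokine that ATF4 also induces, was at 43.1, 47.9 and 44.7 CPM in wt, 63.2, 81.9 and 81.0 CPM in wt -SG, 874, 893 and 862 CPM in wt carbo and 898, 1039 and 852 CPM in wt -SG carbo. Its interaction was -0.65 ± 0.14 (adjusted p = 0.00535, edgeR), and was not called in the fit over 36 libraries (-0.64, adjusted p = 0.172, edgeR). On the CPM scale, however, the difference of differences was 23.3 CPM, of the opposite sign, so its departure from additivity depends on the scale. TP53INP1, which promotes cell death and autophagy, rose by 2.15 in complete and 1.53 in deprived medium (-0.62 ± 0.08, adjusted p = 3.61e-05, edgeR). In the BCL2 family, 6 of 16 were higher and 5 lower (5 and 6 without library 11). Calls made up 68.75% of the list in both fits, against 27.7% and 34.2% of all genes tested. The BH3-only gene BMF was at 2.58, 2.02 and 2.23 CPM in wt, 4.69, 3.71 and 4.13 CPM in wt -SG, 6.66, 5.01 and 5.71 CPM in wt carbo and 6.29, 5.24 and 5.90 CPM in wt -SG carbo (-0.88 ± 0.21, adjusted p = 0.00466, edgeR). BNIP3, a mitophagy receptor, had 0.81 ± 0.09 (adjusted p = 7.99e-06, edgeR).

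LDHA, lactate dehydrogenase A, led the list of NAD-related enzymes, in which 8 of 23 were higher and 1, PHGDH, lower (10 and 3 without library 11). It was at 1306, 1316 and 1275 CPM in wt, 760, 753 and 740 CPM in wt -SG, 751, 780 and 768 CPM in wt carbo and 885, 985 and 897 CPM in wt -SG carbo. Each single treatment lowered it, yet the combination lay above both, and the interaction was 1.06 ± 0.06 (adjusted p = 3.54e-09, edgeR). GPD1L, a glycerol-3-phosphate dehydrogenase, had 0.46 ± 0.10 (adjusted p = 0.00331, edgeR). Autophagy and lysosome genes split, with 11 lower and 8 higher of 35 (14 and 8 without library 11). Calls made up 54.3% of this list and 39.1% of the NAD-related list, against 27.7% of all genes tested. GABARAPL1, an ATG8 protein of autophagosomes, was at 23.2, 22.3 and 21.9 CPM in wt, 41.6, 37.3 and 41.3 CPM in wt -SG, 70.7, 70.3 and 72.5 CPM in wt carbo and 75.9, 83.3 and 76.8 CPM in wt -SG carbo (-0.69 ± 0.08, adjusted p = 9.33e-06, edgeR). ATG4A, a protease that processes such proteins, had 0.60 ± 0.19 (adjusted p = 0.0251, edgeR).

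Of 25 collagen and matrix genes, 5 were higher and 5 lower (6 and 7 without library 11). This is 40.0% of the list, against 27.7% of all genes tested. COL1A1, a chain of type I collagen, was at 160, 163 and 161 CPM in wt, 95.9, 100.3 and 96.4 CPM in wt -SG, 850, 859 and 852 CPM in wt carbo and 1000, 840 and 977 CPM in wt -SG carbo (0.86 ± 0.07, adjusted p = 5.45e-07, edgeR). Library 11 is the one at 840. THBS1, a matrix glycoprotein, was at 421, 317 and 395 CPM in wt -SG carbo, with library 11 lowest, and had an interaction of -0.83 ± 0.15 with all libraries and -0.72 without library 11. The ribosomal proteins, which have short transcripts, depended most on that library. Of 78 tested, 9 were lower and 3 higher with it, and 49 were lower and 5 higher without it, with medians of -0.05 and -0.13. The share called went from 15.4% to 69.2%, against 27.7% and 34.2% of all genes tested. The part of the length shift in this difference was not tested. Across genes, transcript length and the interaction had a Spearman rho of -0.236 with all libraries and -0.110 without library 11. RPL36AL (0.48 ± 0.08, adjusted p = 0.000233, edgeR) and RPL17 (0.43 ± 0.14, adjusted p = 0.0254, edgeR) were among the 3 higher ones, and genes of ribosomal proteins have many near-identical copies, which makes their counts uncertain.

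Under carboplatin, the genes that still differed between the media by an absolute log2 value of at least 1 numbered 11. This count was 2 without library 6, 25 without library 10 and 16 without library 11, and 4 of the 11 genes lost their call without library 11. They were chosen by this threshold, 5 lower and 6 higher without serine and glycine. The protein-coding ones were ACTG2 (-1.28), an actin of smooth muscle, MAT1A (-1.0), which makes S-adenosylmethionine, and SERPINA1 (1.11), ETV3L (1.07) and GIP (1.14). GIP was among the 4 that lost their call (adjusted p = 0.0610, edgeR). MAT1A was at 7.64 CPM in wt, 4.53 CPM in wt -SG, 6.11 CPM in wt carbo and 3.05 CPM in wt -SG carbo on average, lower without serine and glycine in both settings, and its interaction of -0.26 was not called.

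The same interaction was then compared with that of cis cells, the A2780 derivative made resistant by long exposure to cisplatin, in the same 4 conditions with 3 libraries each. It differed between wt and cis cells for 3804 of 16406 genes (23.2%), by edgeR's test of the difference in a fit of 24 libraries. Libraries 23 and 24 of cis -SG carbo stood apart, with 17.9% and 14.9% of their counts on no annotated feature against 7.21% to 9.31% in the wt libraries. Without them the count was 2646, and without libraries 11, 23 and 24 it was 3413. Within cis cells the interaction was called for 1026 of 16406 genes, and for 354 without libraries 23 and 24. Of the 51 named genes, 39 differed, 30 being higher and 9 lower in wt cells, and 36 of them also without libraries 11, 23 and 24. Most of the 51 were named for a large wt interaction, which itself enters this difference. The share of 39 is therefore partly set by that choice and cannot be compared with the 23.2% of all genes. NIBAN1 had an interaction of 0.08 in cis cells, a difference of -2.44 ± 0.14 (adjusted p = 1.10e-13, edgeR). RRM2 had -0.42 in cis cells (difference 1.28 ± 0.06, adjusted p = 5.07e-15, edgeR), and LDHA -0.10 (difference 1.17 ± 0.07, adjusted p = 6.84e-13, edgeR). CDKN1A, which was not called in wt cells, had -0.75 in cis cells (difference 0.86 ± 0.08, adjusted p = 3.96e-09, edgeR). EPAS1 (difference -0.99 ± 0.51) and FGF21 (-0.50 ± 0.77) were not called. PRSS35, SLC7A3 and TAF11L12 were not called either, but standard errors of 1133, 4066 and 5758 leave no usable estimate of their differences.

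**Figure D5:**
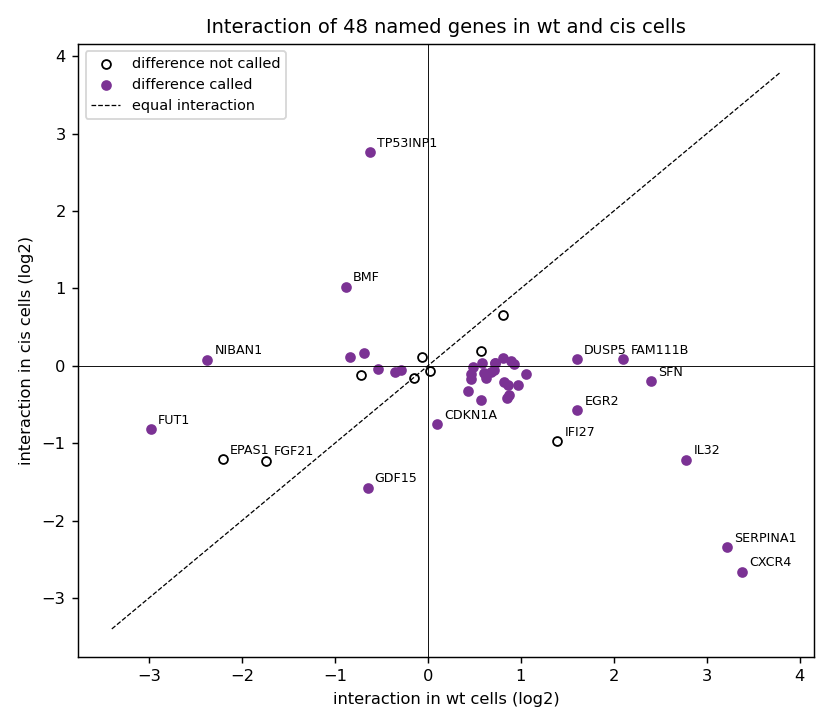
Interaction (log2) in wt cells (x axis) and cis cells (y axis) of 48 named genes, filled where edgeR called the difference, with the dashed line marking equal values. PRSS35, SLC7A3 and TAF11L12 were left out because of the very large standard errors of their differences. Among the filled points, NIBAN1 is at 0.08 and LDHA at -0.10 on the y axis, whereas their values in wt cells are -2.37 and 1.06.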

How the data were processed

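RNA-seq was made from 12 wt libraries, 3 in each of 4 conditions, grouped by the treatment in the labels. The authors mapped the reads to GRCh37.p13 (STAR), obtained exon counts from HTSeq under the GENCODE v19 annotation, and deposited them as raw counts. Strand setting and the handling of reads with several alignments are not given in the sources used here. The table holds 57820 genes. Its 3 rows that name no gene were left out, and reads on no feature made up 7.21% to 9.31% of counts. The members, gene lists and tests were chosen with earlier results of these data known.

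Genes passing filterByExpr were fitted with edgeR 4.0.16 (R 4.3.3), with TMM factors, estimateDisp, robust glmQLFit and glmQLFTest, on the 12 wt libraries. P-values were adjusted by Benjamini-Hochberg over all genes tested and called under 0.05. A standard error (SE, printed after ±) is the absolute log2 value over the square root of F. The difference between wt and cis cells was tested in a fit of 24 libraries. DESeq2 1.42.0, which the study names, was an alternative, with other normalizations and filters, removal of the length trend, and each library left out. The medium effect under carboplatin was added after the data were seen, as was the fit without libraries 11, 23 and 24.

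Genes named are PHGDH, PSAT1, PSPH, ATF4, CDKN1A and MDM2, the 6 lowest and 6 highest protein-coding interactions averaging 50 counts or more and with a call in the same direction with and without library 11, and at most 2 such members per list. Of the genes this rule gave, 1 is counted but not reported here. Symbols and positions came from GENCODE v44 mapped to GRCh37, and promoter sequences from RefSeq on GRCh38.p14. The test was tried on simulated counts. Replicates carry no label number, so none were paired. Python 3.11.15 and pandas 2.3.3 handled the tables.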

Additional observations from a re-analysis of the deposited data

Results flagged for a closer look

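By edgeR's test of the difference, the interaction was not the same in wt and cis cells for 3804 genes and for 39 genes of the naming rule. That rule takes most genes by the size of their wt interaction, so the count of 39 is partly set by it. The differences given are wt minus cis on the log2 scale. Among the amino acid and serine genes and their neighbours in the ranking the difference was -0.23 for PHGDH, -0.26 for PSAT1, -0.48 for SARS1, -2.15 for FUT1, -2.44 for NIBAN1 and 0.58 for HARS1. At the top of the ranking it was 6.05 for CXCR4, 5.57 for SERPINA1, 4.0 for IL32, 2.61 for SFN and 2.02 for FAM111B, with large standard errors of 1.90, 1.85 and 0.93 for CXCR4, SERPINA1 and IL32, whose interactions in cis cells were not called. For immediate-early, NF-kB and matrix genes it was 2.19 for EGR2, 1.53 for DUSP5, 0.70 for TNFAIP2, 1.12 for COL1A1 and -0.94 for THBS1. For genes of replication, mitosis, repair and nucleotide synthesis it was 0.77 for HMMR, 1.03 for AURKB, 0.91 for CCNE2, 1.26 for GINS3, 0.79 for EXO1, 1.28 for RRM2 and 0.70 for DUT. For cholesterol and ER genes it was 0.83 for HSD17B7, 1.03 for NSDHL, 1.23 for SDF2L1 and 0.55 for CRELD2. Among p53 targets and BCL2 family genes it was 0.86 for CDKN1A, 0.93 for GDF15, -3.37 (SE 0.87) for TP53INP1, -1.90 for BMF and 0.71 for BNIP3. For the remaining ones it was 1.17 for LDHA, 0.64 for GPD1L, 0.51 for RPL36AL, 0.77 for RPL17, -0.84 for GABARAPL1 and 0.70 for ATG4A. Without libraries 11, 23 and 24, SERPINA1 (adjusted p = 0.0616, edgeR), HSD17B7 (0.115) and ATG4A (0.160) were no longer called, and TP53INP1 was at -2.73.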

How the results depend on the processing

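The interaction was called for 1535 genes in one fit over the 36 libraries and for 371 with an absolute log2 value of at least 1, and for 3455 to 5306 with each wt library left out. The medium effect without carboplatin was called for 2821 and 308 genes under the same settings. Under carboplatin it was called for 87 and 11 genes, 947 with no filter on low counts, 843 with the length trend removed, and 176 to 926 with a library left out. It was 234 without library 4 or library 5, 176 without library 6, 841 without library 10 and 926 without library 11. With an absolute log2 value of at least 1, the carboplatin effect was called for 3064 genes in complete and 3536 in deprived medium, the combined effect of both treatments against wt for 3380, and the difference between wt and cis cells for 560, with 825 in the fit over 36 libraries. The interaction in cis cells went from 1026 genes to 354 without libraries 23 and 24, and the genes called for the medium both without and with carboplatin from 282 to 596 without library 11. In single genes, 2 uncalled values changed sign. ATF4 was at -0.065 with the length trend removed and between -0.028 and 0.060 with a library left out, and MDM2 at 0.068 and between -0.10 and 0.0086. GDF15 was at 23.3 CPM for additivity on the CPM scale. Of the 51 named genes, 11 lost their call in the fit over 36 libraries (PHGDH, AMT, MTHFD2L, GDF15, AURKB, SDF2L1, CRELD2, IFI6, RPL36AL, RPL17 and DUT). Members called changed by more than 1.5 times without library 11 for NF-kB targets (3 to 5) and ribosomal proteins (12 to 54). No paired analysis was possible because the labels carry no replicate numbers. Low counts limit the values of CXCR4, SERPINA1, TAF11L12, FUT1 and FGF21.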
